A study of Mus musculus with 16 samples.

Results

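The genes examined here are 8 that mark where a T cell travels and lodges, namely the homing and adhesion receptors Ccr7, S1pr1, Cx3cr1, Cd44, Itga4 and Itgae and the paired Ly6c genes Ly6c1 and Ly6c2. They were chosen by name, as 8 of the 21911 protein-coding genes with a unique name in GENCODE M21 on mouse build GRCm38, with earlier results of these data known. For each gene a window was drawn over the gene and 5000 bp to each side, 497.499 kb in all, and the open chromatin peaks that touched the window were read from each library's own peak list. The data were assays for transposase-accessible chromatin (ATAC-seq), in which a transposase cuts exposed DNA and a peak marks a place where more sequenced fragments lie than in the surrounding background. The series set out to compare the chromatin of T cells from wildtype mice and from TPdh-/- mice, in 4 groups of 4 libraries.

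The labels name the cells effector or memory T-cells and give the genotype. By the study's methods, mice were 8 to 12 weeks old, male and female, and T cells from spleen were differentiated in culture: OT-I cells, CD8+ cells with a transgenic receptor for an ovalbumin peptide, were activated with that peptide for 3 days and then kept for 4 days with 10 ng/mL of IL-2, which gave effector cells (TE), or of IL-15, which gave memory cells (TM). WT cells had genotype TPdh+/+. TPdh-/- cells came from a cross of B6.129P2-Pdha1tm1ptl/J mice, which carry a floxed Pdha1 allele, with B6.Cg-Tg(Cd4-cre)1Cwi/BfluJ mice, which carry a Cre transgene driven by the Cd4 promoter, which acts in developing T cells before the CD4 and CD8 lineages part, so CD8+ cells also lose the pyruvate dehydrogenase complex (PDC), the enzyme that turns pyruvate into acetyl-CoA. Each genotype was thus measured in each cell state: TE and TM from WT mice, and TE and TM from TPdh-/- mice, 4 libraries per group. The labels number the libraries within a group and do not name animals, so p-values measure only the spread between these libraries, which may be technical.

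CCR7 is the chemokine receptor that brings naive and central memory T cells into lymph nodes, and S1PR1 senses sphingosine 1-phosphate and lets them leave again. CX3CR1 binds fractalkine and marks effector cells that patrol blood vessels. CD44 binds hyaluronan and stays on the surface of T cells that have met antigen. ITGA4 is the alpha chain of the integrins VLA-4 and, with ITGB7, LPAM-1, and ITGAE is the alpha chain that pairs with ITGB7 to bind E-cadherin on epithelium. LY6C is a small lipid-anchored surface protein found on memory T cells and monocytes, and its genes sit in a cluster of related Ly6 genes.

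The peak lists differed greatly in length. They held from 2290 peaks (WT TE replicate 3) to 86637 (TPdh-/- TM replicate 2), 645567 in all, with means of 8869 ± 7383 in WT TE, 50920 ± 21251 in TPdh-/- TE, 31835 ± 17776 in WT TM and 69768 ± 11594 in TPdh-/- TM (SD, n = 4 each). The background fragment coverage, recovered from the fold enrichment and p-value of each peak, ran the other way, at 1.18 ± 0.406 in WT TE, 0.324 ± 0.130 in TPdh-/- TE, 0.411 ± 0.107 in WT TM and 0.224 ± 0.0309 in TPdh-/- TM. A summit needed 5 to 9 overlapping fragments to be listed in a WT TE library and 3 to 5 in the other libraries. Protein-coding genes with a peak in their windows made up 27.7% ± 13.2 in WT TE, 53.2% ± 12.4 in TPdh-/- TE, 41.1% ± 17.3 in WT TM and 63.9% ± 2.62 in TPdh-/- TM. Marker lists were likewise lowest in WT TE, and highest or level with the highest in TPdh-/- TM: the 10 CD8+ T cell markers were held in 10, 20, 21 and 30 of 40 gene and library pairs (WT TE first, then TPdh-/- TE, WT TM and finally TPdh-/- TM), the 5 B cell markers in 1, 8, 10 and 14 of 20, the 5 myeloid markers in 4, 12, 9 and 12 of 20, the 2 NK cell markers in 1, 2, 2 and 3 of 8, and the 2 CD4 T cell markers in 2, 6, 5 and 6 of 8. No marker was without a peak in all 16 libraries, and the part of list length or of other cells in the values below was not tested. In these bulk libraries, a site open in more cells and a site cut more often in each cell cannot be told apart.

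The 8 windows together held 197 peaks, of which 6 were in WT TE, 60 in TPdh-/- TE, 45 in WT TM and 86 in TPdh-/- TM. By library, the WT TE counts were 3, 1, 0 and 2 peaks, the TPdh-/- TE counts 10, 11, 15 and 24, the WT TM counts 24, 4, 3 and 14, and the TPdh-/- TM counts 18, 20, 21 and 27. Every WT TE library was below every TPdh-/- TE library, while WT TM spanned nearly the whole range of the other groups. Per 100 kb and relative to each library's own genome-wide density, the member windows held 1.06 ± 1.07 times the density in WT TE, 1.69 ± 0.538 in TPdh-/- TE, 1.68 ± 0.718 in WT TM and 1.72 ± 0.426 in TPdh-/- TM, ranges that overlap. The near equality of TPdh-/- TE, WT TM and TPdh-/- TM was not kept with lists of 2290 peaks each, as the last section gives. Most of these peaks were weak: the summit pileup had a median of 5 fragments and a range of 3 to 30, 84 of the 197 summits had 4 or fewer, and 23 reached a −log10 q of 5, where q is the p-value of the peak corrected by the peak caller.

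**Figure D1:**
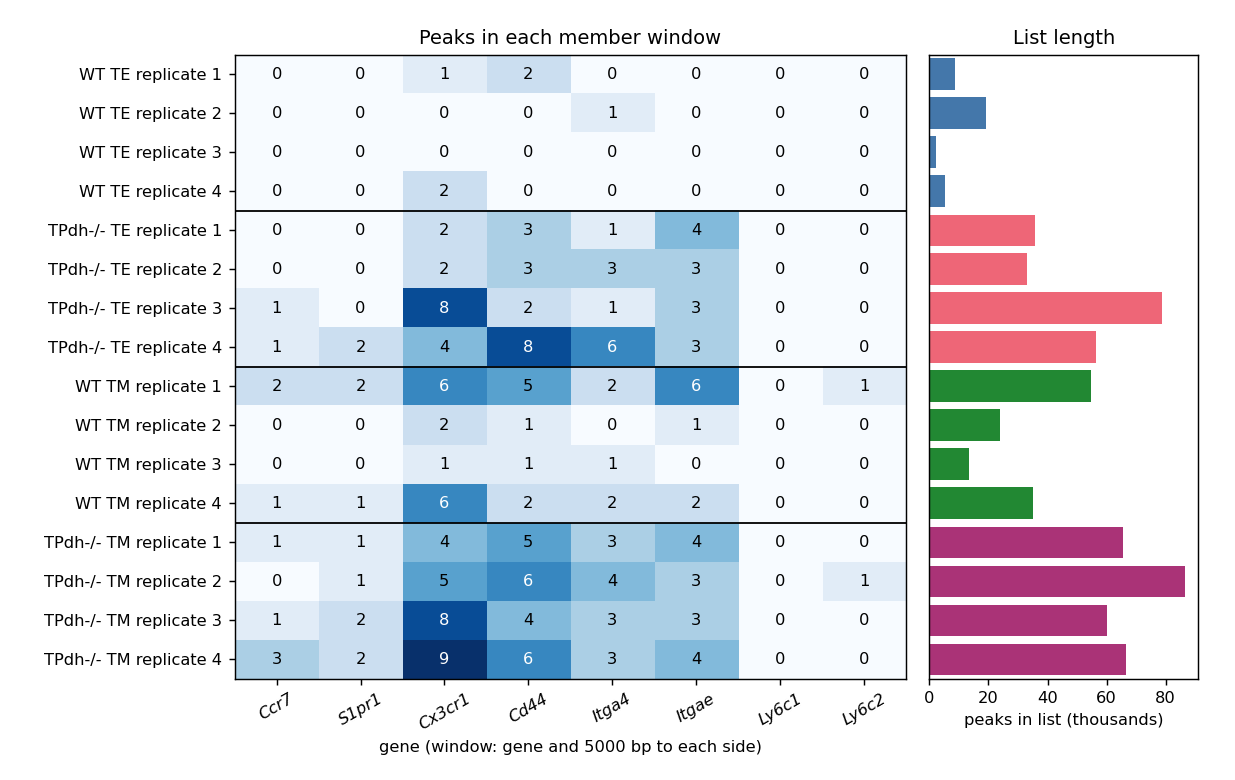
Number of peaks in the window of each gene (columns) in each of the 16 libraries (rows, grouped by genotype and cell state), with each cell shaded by its count, beside a bar for the length of that library's peak list in units of 1000 peaks. Ly6c1 is at 0 in every library and Itgae is at 0 in the 4 WT TE libraries and at 3 or 4 in the 4 TPdh-/- TE libraries, whose lists are longer.

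Of the 197 peaks, 142 had their summit in an intron, 18 in an exon, 27 in the upstream flank and 10 in the downstream flank. Peaks that overlapped were joined across libraries into 144 regions, of which 114 came from 1 library alone, 30 from 2 or more and 5 from 4 or more. Over the genome, 13.1% of 525048 such regions came from 2 or more libraries and 1.76% from 4 or more. The 5 recurring regions were the Itga4 promoter (8 libraries), the stretch upstream of S1pr1 (6 libraries) and 3 sites inside the long Cx3cr1 gene model (4 libraries each). Where peaks had to share 50% of the shorter peak, 3 of the 5 remained in 4 or more libraries, and those lost were sites of Cx3cr1.

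Itga4, the integrin alpha 4 chain, had the most recurrent region. The gene lies at chr2:79255426-79333123 on the plus strand, and the region spans chr2:79254624-79255815, from the upstream flank into the first exon. It was held by 0 WT TE libraries, 3 TPdh-/- TE libraries, 2 WT TM libraries and 3 TPdh-/- TM libraries. The 300 bases before the annotated start are printed because peaks of 7 of the 8 libraries overlapped them (chr2:79255126-79255425, plus strand, 61.7% GC, 7 CpG), with capitals for the letters of the motifs described further on.
Itga4 upstream: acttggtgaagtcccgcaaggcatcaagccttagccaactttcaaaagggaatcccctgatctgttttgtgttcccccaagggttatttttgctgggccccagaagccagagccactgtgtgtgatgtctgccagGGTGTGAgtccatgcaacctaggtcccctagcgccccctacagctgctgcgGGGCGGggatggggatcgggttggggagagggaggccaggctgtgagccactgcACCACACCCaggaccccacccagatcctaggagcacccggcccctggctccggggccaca

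The Itga4 promoter peaks were small in most libraries and large in one. In TPdh-/- TE the summit pileup was 3 fragments in replicate 2, 5 in replicate 3 and 11 in replicate 4. In WT TM it was 5 in replicate 1 and 7 in replicate 4. In TPdh-/- TM it was 8 in replicate 2, 4 in replicate 3 and 30 in replicate 4, the last with a fold enrichment of 15.8 and a −log10 q of 29.7, the strongest of all 197 peaks. The summits lay from −702 bp (WT TM replicate 4) to +219 bp (TPdh-/- TE replicate 4) relative to the start, so the libraries marked the same promoter and not the same base. TPdh-/- TE replicate 4 had 2 peaks in the region and a further one with its summit 611 bp after the start. A promoter peak, meaning a summit within 1000 bp of one of a gene's annotated starts, was seen in 8 or more of the 16 libraries for 14.2% of coding genes.

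Over the whole Itga4 window, WT TE libraries had 0, 1, 0 and 0 peaks, TPdh-/- TE libraries 1, 3, 1 and 6, WT TM libraries 2, 0, 1 and 2, and TPdh-/- TM libraries 3, 4, 3 and 3. All TPdh-/- TM libraries lay above all WT TM libraries. The mean number of peaks was 3.25 ± 0.5 in TPdh-/- TM and 1.25 ± 0.957 in WT TM (SD, n = 4 each), a difference of 2 peaks with a two-sided exact permutation p of 0.0286, the smallest that 4 libraries against 4 allow, and an adjusted p of 0.638 over the 21911 genes. The same separation was found for 4.46% of coding genes, in lists that were also longer in TPdh-/- TM, and per 10000 peaks of the list the difference was 0.0457 peaks (exact permutation p = 0.8). The strongest Itga4 peak had a fold enrichment of 4.92, 6.91, 8.76 and 15.8 in the TPdh-/- TM libraries, and of 5.17, none, 4.45 and 5.19 in the WT TM libraries.

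S1pr1, the receptor for lymph node exit, had the second recurrent region. The gene lies at chr3:115710433-115715072 on the minus strand, and the region spans chr3:115714750-115716092, over its first exon and upstream flank and over the lincRNA gene Gm9889. It was held by 0 WT TE libraries, 1 TPdh-/- TE library, 2 WT TM libraries and 3 TPdh-/- TM libraries. A window of 300 bases, from −1108 to −809 bp relative to the start, is printed because the S1pr1 peak with the highest fold enrichment has its summit there (chr3:115715881-115716180, minus strand, 44.0% GC, no CpG, all within an exon of Gm9889), with capitals for the 84 bases that the genome file marks as repeats.
S1pr1 upstream: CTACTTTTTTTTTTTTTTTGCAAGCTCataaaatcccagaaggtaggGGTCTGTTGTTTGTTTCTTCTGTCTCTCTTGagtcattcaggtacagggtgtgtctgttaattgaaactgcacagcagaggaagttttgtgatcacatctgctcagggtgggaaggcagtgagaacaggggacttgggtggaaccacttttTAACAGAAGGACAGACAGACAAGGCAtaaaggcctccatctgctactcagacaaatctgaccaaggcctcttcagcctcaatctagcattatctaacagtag

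Within that region the summit pileup was 6 fragments in TPdh-/- TE replicate 4, 4 in WT TM replicate 1, 6 in WT TM replicate 4, and 9, 4 and 6 in TPdh-/- TM replicates 1, 3 and 4. The strongest was that of TPdh-/- TM replicate 1, with a fold enrichment of 7.53 and a −log10 q of 7.66, the only S1pr1 peak with a −log10 q of 5 or more. The summits ran from −958 to +215 bp relative to the start. A promoter peak in 6 or more libraries was found for 23.9% of coding genes. The fourth TPdh-/- TM library, replicate 2, had its only S1pr1 peak elsewhere, at −3703 bp, with 3 fragments.

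Counting the whole S1pr1 window, WT TE libraries had no peak, TPdh-/- TE libraries had 0, 0, 0 and 2, WT TM libraries 2, 0, 0 and 1, and TPdh-/- TM libraries 1, 1, 2 and 2. S1pr1 was therefore held by 4 of 4 TPdh-/- TM libraries and 1 of 4 TPdh-/- TE libraries, which Fisher's exact test did not separate (two-sided p = 0.143, adjusted p = 1). It was the only one of the 8 genes held by at least 3 more libraries of TPdh-/- TM than of TPdh-/- TE, a lead shared by 4.09% of coding genes.

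**Figure D2:**
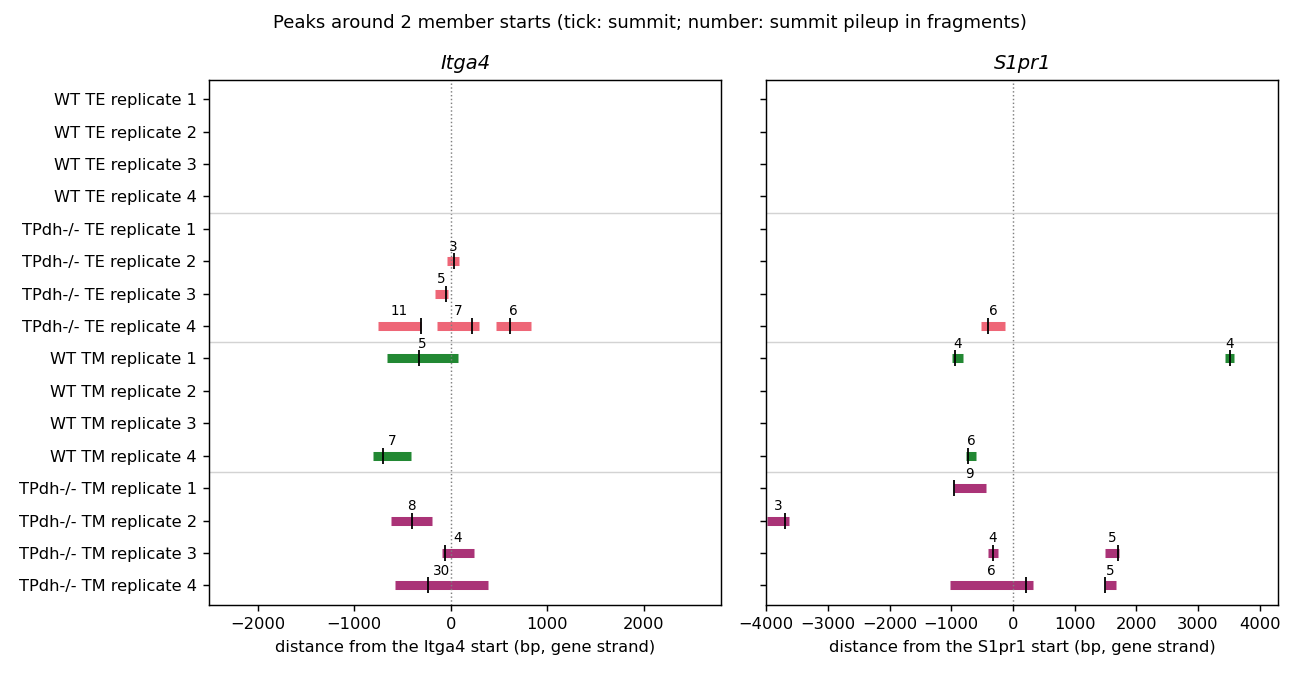
Peaks near the annotated starts of Itga4 (left) and S1pr1 (right) in each of the 16 libraries, with distance from the start in bp along the gene's strand on the horizontal axis; bars are peak extents, ticks are summits and numbers are summit pileups in fragments. The rows of the 4 WT TE libraries are empty for both genes, and the Itga4 pileup of 30 fragments in TPdh-/- TM replicate 4 stands above the 3 to 11 of the other libraries.

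Ccr7, the receptor for lymph node entry, had few and scattered peaks. The gene lies at chr11:99144196-99155077 on the minus strand. WT TE libraries had no peak, TPdh-/- TE libraries had 0, 0, 1 and 1, WT TM libraries 2, 0, 0 and 1, and TPdh-/- TM libraries 1, 0, 1 and 3. The groups other than WT TE overlapped in full. The 10 peaks fell into 7 regions, the most recurrent being an intronic site at chr11:99150147-99150561, held by 1 TPdh-/- TE library and 2 TPdh-/- TM libraries with 3 to 6 fragments and a fold enrichment of 3.05 to 5.29. A promoter peak was present in 3 libraries, 1 each of TPdh-/- TE, WT TM and TPdh-/- TM, with summits at −39, +9 and +213 bp relative to the start. None of the 10 peaks reached a −log10 q of 5, and 45.1% of coding genes had a promoter peak in 3 or more libraries.

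Itgae, the chain that holds T cells in epithelium, separated the effector groups most completely. The gene lies at chr11:73090583-73147446 on the plus strand. WT TE libraries had no peak in its window, and TPdh-/- TE libraries had 4, 3, 3 and 3, with a strongest fold enrichment of 7.05, 4.04, 5.56 and 3.46. Fisher's exact test on 4 of 4 against 0 of 4 libraries gave a two-sided p of 0.0286 and an adjusted p of 0.891. That pattern was shared by 3.13% of coding genes. The WT TE lists were also far shorter, with a mean genome-wide density of 0.325 peaks per 100 kb against 1.87 in TPdh-/- TE. The Itgae window measures 66.864 kb, and the part of list length in its empty WT TE libraries was not tested. The number of peaks differed by 3.25 (3.25 ± 0.5 against 0, SD, n = 4 each, exact permutation p = 0.0286, adjusted p = 0.373), a separation seen for 7.61% of coding genes. TM libraries did not separate by genotype, with 6, 1, 0 and 2 peaks in WT TM and 4, 3, 3 and 4 in TPdh-/- TM.

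The Itgae peaks of the 4 TPdh-/- TE libraries were not one site. Their 13 peaks had 3 to 10 fragments and none was within 1000 bp of an annotated start of the gene. The site held by the most TPdh-/- TE libraries lies in an intron near the end of the gene, at chr11:73145525-73146146, and was held by 3 TPdh-/- TE libraries and no other, with a pileup of 3 to 5 and a fold enrichment of 3.13 to 4.23. Its 3 peaks were joined by overlaps of 1 base or more, and no peak there shared 50% of the shorter peak with more than 1 other library. The 300 bases centred on its strongest summit, that of TPdh-/- TE replicate 1, are printed to show the repeats there: 198 of them are so marked, in capitals (chr11:73145985-73146284, plus strand). This stretch runs past the end of the site, and the peaks of 2 of the 3 libraries overlap it.
Itgae intronic: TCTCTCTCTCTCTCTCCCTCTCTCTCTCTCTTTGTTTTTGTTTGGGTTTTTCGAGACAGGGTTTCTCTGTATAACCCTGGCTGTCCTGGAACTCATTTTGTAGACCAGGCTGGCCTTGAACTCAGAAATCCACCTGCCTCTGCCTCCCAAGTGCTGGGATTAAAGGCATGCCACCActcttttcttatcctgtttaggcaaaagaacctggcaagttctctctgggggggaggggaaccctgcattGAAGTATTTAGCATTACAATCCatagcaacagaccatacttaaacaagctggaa

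Another intronic site of Itgae, at chr11:73122439-73122794, held the strongest TPdh-/- TE peak (10 fragments, 7.05-fold) and was seen in 2 TPdh-/- TE libraries and 1 TPdh-/- TM library. The strongest peak of all in the window, 7.95-fold with 9 fragments in TPdh-/- TM replicate 3, lies at chr11:73137777-73138406, a site held by 1 WT TM library and 2 TPdh-/- TM libraries. That site is in an Itgae intron and also at the start of Haspin, a kinase gene nested in Itgae on the other strand, so the window count cannot assign it. Over the window, 11 of 36 peaks (30.6%) had more than 50% of the bases within 150 bp of the summit marked as repeats, against 27.0% of the 182095 peaks on the chromosomes of the 8 genes. With each list cut to its 2290 strongest peaks, the length of the shortest list, Itgae was held by 1 TPdh-/- TE library and 1 TPdh-/- TM library.

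Cd44, the hyaluronan receptor of antigen-experienced cells, had peaks spread along the gene. It lies at chr2:102811141-102901665 on the minus strand. WT TE libraries had 2, 0, 0 and 0 peaks, TPdh-/- TE libraries 3, 3, 2 and 8, WT TM libraries 5, 1, 1 and 2, and TPdh-/- TM libraries 5, 6, 4 and 6. WT TE replicate 1 touched the range of the TPdh-/- TE group and kept the groups from separating (4.00 ± 2.71 against 0.50 ± 1.00 peaks, SD, n = 4 each, exact permutation p = 0.0571, adjusted p = 0.570). In TM the genotypes differed by 3 peaks (5.25 ± 0.957 in TPdh-/- against 2.25 ± 1.89 in WT, exact permutation p = 0.0857, adjusted p = 0.765). WT TM replicate 1, with 5 peaks, lay within the TPdh-/- range. The strongest fold enrichment per library lay between 4.00 and 7.39 in the 12 libraries outside WT TE. The 48 peaks fell into 36 regions, 11 of them in 2 or more libraries and none in 4 or more, the most recurrent being an intronic site at chr2:102835497-102835862 held by 2 TPdh-/- TE libraries and 1 WT TM library. A promoter peak was found in 4 libraries (2 TPdh-/- TE, 1 WT TM and 1 TPdh-/- TM), and 36.8% of coding genes had one in 4 or more.

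Cx3cr1, the fractalkine receptor, had the most peaks of the 8 genes, 60 in 14 libraries, but its window was also the longest. GENCODE M21 places the gene at chr9:119901616-120069879 on the minus strand, 168264 bp, because of transcripts of support level 5, the lowest, one of which reaches far downstream. The RefSeq model and the best supported GENCODE transcript cover chr9:120048683-120068296, 19614 bp. Around that model, with 5000 bp to each side, there were 6 peaks in 4 libraries: among TE libraries 0 of WT and 1 of TPdh-/-, and among TM libraries 2 of WT and 1 of TPdh-/-. Of the other peaks of the window, 2 lie further upstream, at chr9:120074186-120074424, and the rest in the stretch downstream that also holds the coding genes Xirp1, Csrnp1, Ttc21a, Gorasp1 and Wdr48. A summit within 1000 bp of a Cx3cr1 start was found in 1 library, TPdh-/- TM replicate 3, and in 1 or more libraries for 73.5% of coding genes.

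**Figure D3:**
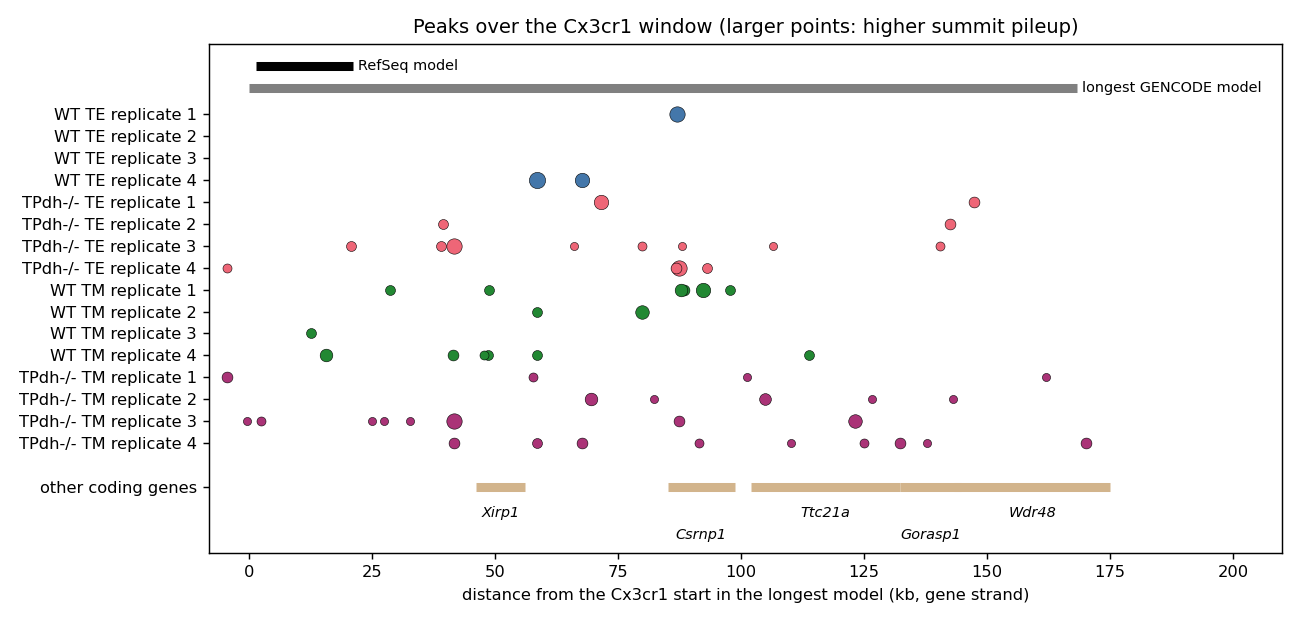
Summits of the 60 peaks in the Cx3cr1 window by library, against distance from the Cx3cr1 start in the longest gene model in kb along the gene's strand; larger points have a higher summit pileup, the black and grey bars are the RefSeq and the longest GENCODE models, and tan bars are other coding genes. Most summits lie beyond the 19614 bp of the RefSeq model, among the genes Xirp1 to Wdr48.

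In the wide window, the number of Cx3cr1 peaks was 1, 0, 0 and 2 in WT TE, 2, 2, 8 and 4 in TPdh-/- TE, 6, 2, 1 and 6 in WT TM, and 4, 5, 8 and 9 in TPdh-/- TM. The strongest peak had a fold enrichment of 3.58, none, none and 4.25 in WT TE and of 6.75, 5.48, 8.81 and 6.17 in TPdh-/- TE, groups that did not overlap. On the log2 scale, with no peak set to 0, the difference was 1.76 (exact permutation p = 0.0286, adjusted p = 0.514), and around the shorter model it was 0.56 (exact permutation p = 1). Fold enrichment is set against the background coverage, which was higher in WT TE. Counted in fragments, the summits of all member windows had a median pileup of 10.5 in WT TE and 5 in TPdh-/- TE. Of the 3 sites in 4 libraries, one lies within the gene Csrnp1 (chr9:119981785-119982621), one overlaps the lincRNA gene Gm49427 (chr9:120011182-120011715), and one overlaps no other annotated gene (chr9:120027967-120028617). The last had the strongest peaks, 5.13- to 8.81-fold with 6 to 11 fragments, in 1 TPdh-/- TE, 1 WT TM and 2 TPdh-/- TM libraries. Its centre is printed because all 4 of its peaks had more than 50% of the bases around the summit marked as repeats: 250 of these 300 bases, in capitals, are so marked, with a run of 60 bases of alternating A and C at the end (chr9:120028104-120028403, minus strand).
Cx3cr1 model intronic: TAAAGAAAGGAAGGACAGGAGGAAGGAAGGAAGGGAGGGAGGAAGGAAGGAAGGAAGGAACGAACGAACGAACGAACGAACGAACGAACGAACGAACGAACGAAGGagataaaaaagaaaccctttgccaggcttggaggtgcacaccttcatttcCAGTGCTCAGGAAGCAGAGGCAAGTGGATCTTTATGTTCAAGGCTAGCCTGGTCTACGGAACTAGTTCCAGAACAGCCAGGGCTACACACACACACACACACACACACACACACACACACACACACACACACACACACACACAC

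Ly6c1 and Ly6c2 were the emptiest windows. Ly6c1, at chr15:75044018-75048830 on the minus strand, had no peak in any of the 16 libraries, where the genome-wide density would place 3.51 peaks over all lists, and 4.52% of coding genes were likewise without a peak. Ly6c2, at chr15:75108158-75111970 on the minus strand, had 2 peaks where the density would place 3.27, one in WT TM replicate 1 (4.43-fold) and one in TPdh-/- TM replicate 2 (4.76-fold), and 14.9% of coding genes were held by 2 or fewer libraries. Both Ly6c2 peaks had 5 fragments, and their summits lay at −4588 and −4590 bp relative to the start, 2 bp apart. With 10000 bp to each side, Ly6c1 had 3 peaks in 3 libraries (1 TPdh-/- TE, 1 WT TM and 1 TPdh-/- TM) and Ly6c2 had 3 in 3. With 1000 bp neither had any. Neither Ly6c gene had a promoter peak in any library, as for 26.5% of coding genes. The site is printed because it is the only site with a peak in either window of 5000 bp, and it was seen in both genotypes (chr15:75116505-75116785, minus strand, 281 bases, no repeat), with motif letters in capitals.
Ly6c2 upstream: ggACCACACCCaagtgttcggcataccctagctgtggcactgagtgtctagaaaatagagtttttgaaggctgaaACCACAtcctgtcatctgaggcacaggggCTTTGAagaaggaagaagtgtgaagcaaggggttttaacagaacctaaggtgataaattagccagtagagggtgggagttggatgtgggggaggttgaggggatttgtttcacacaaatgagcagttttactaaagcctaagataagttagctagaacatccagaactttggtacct

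The authors removed reads that the aligner reported at a second position. To measure how often this occurs in each window, error-free reads of 100 bases were cut every 5 bases from the genome of the 8 windows and aligned back to the chromosomes of these genes. A second position was reported for 75.8% of 2943 reads from the Ly6c1 window and 62.2% of 2743 reads from the Ly6c2 window. In the other member windows the share was 0.289% (Ccr7), 0.309% (S1pr1), 1.35% (Cx3cr1), 0.483% (Cd44), 1.02% (Itga4) and 2.12% (Itgae). Of the marked Ly6c1 reads, 60.5% had a second position in the Ly6c2 window and 99.2% within the Ly6 cluster at chr15:74950051-75164126, and of the marked Ly6c2 reads 77.6% pointed to the Ly6c1 window.

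**Figure D4:**
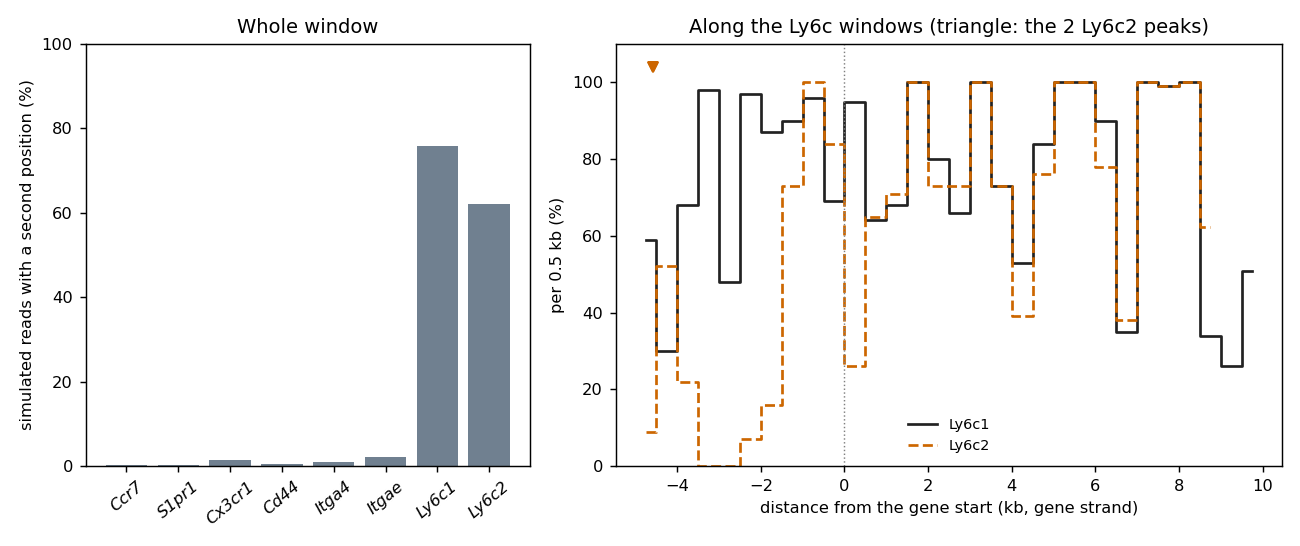
Share of simulated 100-base reads, in percent, for which the aligner reported a second position, over each whole window (left, 1 bar per gene) and per 0.5 kb along the Ly6c1 and Ly6c2 windows (right, distance from the gene start in kb along the gene's strand). The bars of Ly6c1 and Ly6c2 stand at 75.8% and 62.2% while the other 6 genes are at 2.12% or below, and the triangle marks the 2 Ly6c2 peaks, at a site where the share was 28.3%.

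Within 1000 bp of the start, 81.0% of Ly6c1 reads and 68.8% of Ly6c2 reads had a second position. These reads were simulated and unpaired, whereas the libraries were sequenced as read pairs, and the part of the filter in the absent Ly6c peaks was not tested. At the Ly6c2 site with the 2 peaks the share was 28.3% (17 of 60 reads), and at the 5 recurring regions of the other genes it was 0. Among 6 other Ly6 genes the share was 41.5% at Ly6a, 12.1% at Ly6i, 6.74% at Ly6g, 2.07% at Ly6k, 1.83% at Ly6e and 0.741% at Ly6d, and these were held by 1, 4, 6, 4, 2 and 2 libraries. The likeness of the Ly6c windows can be read in a stretch of 150 bases downstream of each gene (Ly6c1 chr15:75043671-75043820, Ly6c2 chr15:75106805-75106954, both minus strand), chosen because it is identical, so that no base is capitalised.
Ly6c1 stretch: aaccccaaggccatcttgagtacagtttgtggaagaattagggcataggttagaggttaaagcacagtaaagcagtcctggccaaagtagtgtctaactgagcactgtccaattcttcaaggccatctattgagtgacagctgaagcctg
Ly6c2 stretch: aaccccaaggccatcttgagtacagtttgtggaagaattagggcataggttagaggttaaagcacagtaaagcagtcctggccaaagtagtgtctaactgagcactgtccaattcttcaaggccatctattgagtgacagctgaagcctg
Of all 100-base stretches of the Ly6c1 window, 53.5% matched the Ly6c2 window at 90% of bases or more and 13.4% matched in full.

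The question of the series, what loss of PDC does to chromatin, was then put to the 8 genes as 2 genotype contrasts and 2 contrasts of cell state. No member passed an adjusted p of 0.05 in any of the 4 contrasts, by the number of libraries with a peak, by the number of peaks or by the strongest fold enrichment, and neither did any of the 21911 coding genes (0.0%). The smallest unadjusted p that these exact tests allow is 0.0286, so a gene could pass only if most of the 21911 genes reached it. These counts of 0 therefore do not show that the genes were unchanged. In TPdh-/- TM against WT TM, 4 members were held by more TPdh-/- libraries, 4 by as many and 0 by fewer, where 62.0% of coding genes were held by more and 9.0% by fewer. The members ahead by 3 or more libraries numbered 0, against 8.69% of coding genes, and by unadjusted p 1 member, Itga4, passed 0.05 for the number of peaks, as did 4.46% of coding genes in that direction. None did for libraries with a peak or for the strongest peak, for which 1.14% and 2.59% of coding genes passed in that direction. The median difference over the members was 1 peak, beside 0.5 over all coding genes, which were not matched to the members for window length.

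In TPdh-/- TE against WT TE, 6 members were held by more TPdh-/- libraries and 2 by as many, where 62.6% of coding genes were held by more and 11.2% by fewer. Cd44, Itga4 and Itgae were ahead by 3 or more libraries, as were 15.3% of coding genes. Cx3cr1, Itga4 and Itgae passed an unadjusted exact permutation p of 0.05 for the strongest fold enrichment, with log2 differences of 1.76, 1.87 and 2.27, as did 4.95% of coding genes in that direction. The median log2 difference was 1.40 over the members and 0.50 over all coding genes. The coding genes were not matched to the members for window length, which reached 178.264 kb at Cx3cr1. WT TE is the group whose lists needed the most fragments per peak, so genotype and the threshold of detection cannot be told apart here.

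**Figure D5:**
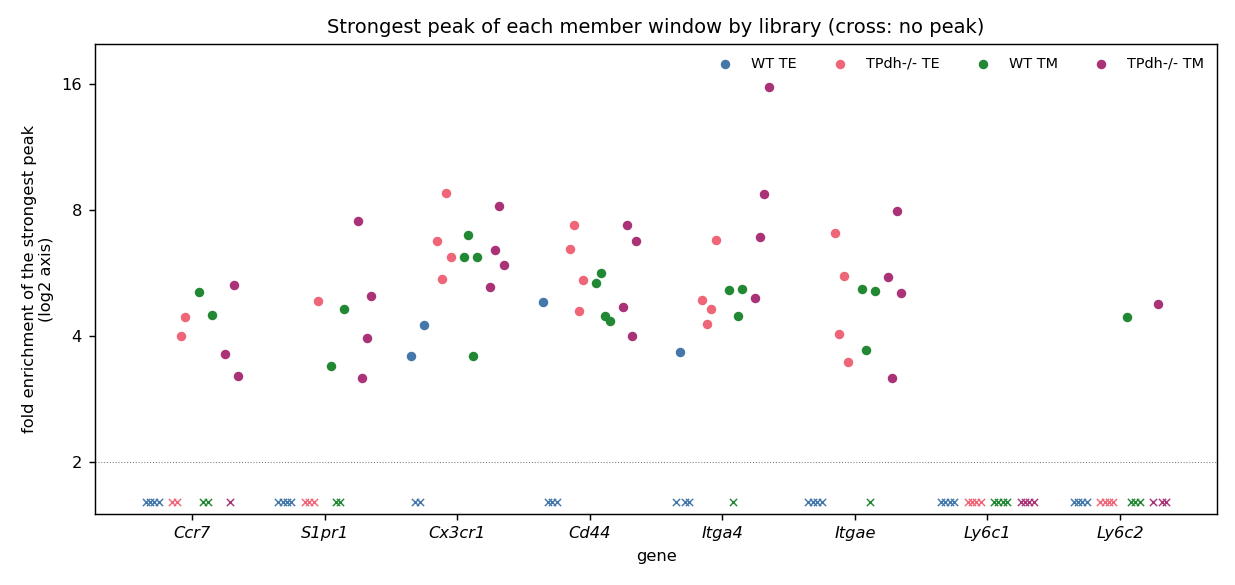
Fold enrichment of the strongest peak in each gene's window in each library (log2 axis), 1 point per library coloured by group, with a cross at the bottom for a library without a peak in the window. WT TE libraries show 4 points in all, between 3.58 and 4.83, and the highest point is Itga4 in TPdh-/- TM replicate 4 at 15.8.

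In WT TM against WT TE, 7 members were held by more TM libraries and 1, Ly6c1, by none of either, where 48.7% of coding genes were held by more and 3977 of 21911 by fewer. Cd44 (4 against 1 library) and Itgae (3 against 0) were ahead by 3 or more, beside 7.17% of coding genes, each with an exact Fisher p of 0.143. No member passed an unadjusted p of 0.05 there, while 1.15% (libraries with a peak), 2.25% (number of peaks) and 2.47% (strongest peak) of coding genes did with more in WT TM. In TPdh-/- TM against TPdh-/- TE, 3 members were held by more TM libraries, Ccr7, S1pr1 and Ly6c2, and 5 by as many, where 44.0% of coding genes were held by more and 17.7% by fewer. Again no member passed an unadjusted p of 0.05, and 0.429%, 1.42% and 1.91% of coding genes did by the same 3 measures with more in TPdh-/- TM. These 4 contrasts share groups, so they are not independent of each other. Whether the genotype difference itself changed between cell states was tested by a permutation of residuals: for the number of Itgae peaks the TM difference of 1.25 was 2 below the TE difference of 3.25 (unadjusted permutation p = 0.137), and for the other members with a peak the p-values were 0.758 or more. Counted per 10000 peaks of the list, the Itgae p was 0.0120, so this value depends on the scaling by list length. No other member or way of counting gave a p under 0.05 in this permutation test. It was not run on other coding genes, so no share can be set beside it.

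Sorted by the libraries that held them, the members took 3 levels. Cx3cr1, Cd44, Itga4 and Itgae were held by 14, 13, 12 and 11 libraries, Ccr7 and S1pr1 by 7 each, and Ly6c2 and Ly6c1 by 2 and 0. Window length follows part of that order, at 178.264, 100.525, 87.698 and 66.864 kb for the first 4, 20.882 and 14.64 kb for Ccr7 and S1pr1, and 14.813 and 13.813 kb for Ly6c1 and Ly6c2. Relative to the genome-wide density and with all libraries pooled, S1pr1 was the densest at 3.17 times, followed by Itgae at 2.27, Ccr7 and Cd44 at 2.02 each, Itga4 at 1.44, Cx3cr1 at 1.42, Ly6c2 at 0.611 and Ly6c1 at 0. The order was not the same in each group: S1pr1 was at 0 in WT TE, 1.83 in TPdh-/- TE, 4.39 in WT TM and 4.00 in TPdh-/- TM, where Itgae was at 0, 2.60, 2.88 and 2.04 and Cd44 at 1.53, 2.13, 1.92 and 2.04. No member had a promoter peak in a WT TE library, as was true of 63.1% of coding genes. No promoter peak was found for 4 members in the TPdh-/- TE libraries and for 4 in the WT TM libraries (Cx3cr1, Itgae, Ly6c1 and Ly6c2 in both), against 51.9% and 58.7% of coding genes, and for 2 in the TPdh-/- TM libraries (Ly6c1 and Ly6c2), against 42.4%. With every list cut to its 2290 strongest peaks, WT TE libraries held 10.2 to 12.2% of coding genes and the other libraries at most 7.17%, while the members had no peak in WT TE, 3, 1, 1 and 0 peaks in the TPdh-/- TE libraries, 0, 1, 0 and 0 in WT TM and 1, 1, 4 and 1 in TPdh-/- TM.

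The other genes of T cell traffic were read in the same way. Of 22 further homing genes, 17 were held by more libraries of TPdh-/- TM than of WT TM and 1 by fewer, and 14 were held by more of TPdh-/- TE than of WT TE and 4 by fewer, and between cell states 10 were held by more TM than TE libraries in WT cells and 2 by fewer, and 9 and 3 in TPdh-/- cells, with no unadjusted p under 0.05 in any contrast. Over all coding genes, 62.0% were held by more and 9.0% by fewer libraries in the TM genotype contrast, 62.6% and 11.2% in the TE genotype contrast, and 48.7% by more and 3977 of 21911 by fewer between cell states in WT cells, and 44.0% and 17.7% in TPdh-/- cells. Cd69, whose product holds S1PR1 inside the cell, was held by 0 WT and 3 TPdh-/- libraries in TE (exact Fisher p = 0.143, adjusted p = 0.891) and by 0 WT and 2 TPdh-/- libraries in TM. Klf2, a transcription factor known to activate S1pr1, was held by 2 and 1 libraries in TE and by 2 and 1 in TM. The chemokine receptor gene Ccr9 also led in the TE genotype contrast, with 4 libraries against 1 and the same p-values as Cd69. In TPdh-/- TM, S1pr4, another sphingosine 1-phosphate receptor, was held by 4 libraries against 1 in WT TM and 1 in TPdh-/- TE, S1pr5, of the same family, by 3 against 0 in TPdh-/- TE, and Ccr6 by 4 against 1 in TPdh-/- TE (exact Fisher p = 0.143 and adjusted p = 1 for each). The beta chains that pair with the member integrins had, for WT and TPdh-/- in turn, 3 and 2 libraries in TE and 3 and 4 in TM (Itgb1), and 1 and 3 in TE and 0 and 2 in TM (Itgb7). Among 6 further Ly6 genes, 4 were held by more TPdh-/- TM than WT TM libraries and 2 by fewer, 3 and 2 in the TE genotype contrast, 3 and 1 in WT TM against WT TE, and 4 and 2 in TPdh-/- TM against TPdh-/- TE. Ly6g led in the TE genotype contrast with 3 libraries against 0.

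For the 4 members held by 4 to 12 libraries, other coding genes were held by exactly the same libraries. F12 and Crebzf were held by exactly the 7 libraries that held Ccr7, and 6 genes in all matched Ccr7 that closely. Xaf1 and Fscn3 matched S1pr1, with 3 such genes, Btbd10 and Nrf1 matched Itga4, with 61, and Serpine2 and Arid1a matched Itgae, with 93.

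The printed windows were searched on both strands for 6 motifs of factors known in T cells, and the shares given are of 32851 RefSeq promoter windows of GRCm38, each 300 bases long. The Itga4 window held CCACACCC, a KLF family motif (3.56% of promoter windows), overlapping ACCACA, the reverse of the RUNX family motif TGTGGT (16.8%), as well as GGGCGG, the GC box of the SP and KLF families (35.7%), and GGTGTGA, the reverse of the T-box motif TCACACC (3.98%). The Ly6c2 site held CCACACCC overlapping ACCACA as well, a further ACCACA, and CTTTGA, a motif of the TCF and LEF family (5257 of the 32851 windows). CCGGAA, the ETS family motif (14.9%), was found in none of the 5 windows printed for a peak, and the S1pr1, Itgae and Cx3cr1 windows held none of the 6. These are matches of letters and no measure of binding.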

How the data were processed

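ATAC-seq libraries of 16 mouse T cell samples in 4 groups of 4 (WT and TPdh-/-, each as TE and as TM) were analysed from the peak lists the authors deposited, 1 list per library and none pooled. The authors trimmed read pairs with Trimmomatic, aligned them to GRCm38 with BWA MEM 0.7.17, removed reads with a second or split position and reads in the ENCODE blacklist with SAMtools, and called peaks with MACS2 2.2.7.1 on paired fragments. In the deposited lists each peak has a fold enrichment (a ratio, summit pileup over local background, 1 added to both), a −log10 p, a −log10 q, and a score that is 10 times the −log10 q without decimals and was not used. Depth is not in the deposited lists. Summit pileup and background coverage were solved from fold enrichment and p, within 0.001 of the −log10 p, for 99.7% of the peaks in the library with the lowest share.

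A gene was held by a library if a peak touched the gene or 5000 bp to each side. Peaks on the mitochondrial genome (81) were left out. Positions came from GENCODE M21, of which 27 repeated gene names were left out. The numbers of libraries holding a peak were tested with Fisher's exact test, two-sided. The mean number of peaks and the mean log2 strongest fold enrichment (0 without a peak) were compared by two-sided exact permutation over 70 arrangements, whose smallest p is 0.0286. Adjusted p-values are Benjamini-Hochberg over 21911 genes. The genotype by cell state difference used 100000 permutations of residuals. The tests and the pileup solution were checked on simulated data, with differences between groups far larger than those of the members. That check does not show whether differences of the size seen here would be found. Same-numbered libraries did not deviate together throughout (correlations from −0.115 to 0.255 over the 4 comparisons), so no block was used. Alternatives were windows of 1000 and 10000 bp, stricter peaks (−log10 q or fold enrichment of at least 5), lists of 2290 peaks each, regions of 2 or more libraries, promoter peaks, another Cx3cr1 model, scaling by list length, and leaving out each library.

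Simulated reads were aligned with bwa 0.7.19 to the 5 chromosomes that carry the genes, so second positions on other chromosomes were not counted. Python 3.11.15, numpy 2.4.6, scipy 1.17.1, pandas 2.3.3 and matplotlib 3.10.9 were used. Named genes were all 8 members, the genes of the further homing and Ly6 lists that led a comparison by 3 or more libraries or that pair with or regulate a member, and for likeness the 2 genes held by the most nearly identical set of libraries, ties broken by the number of peaks. Some genes that this rule names are not reported here. The members and lists were chosen with earlier results of these data known.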

Additional observations from a re-analysis of the deposited data

Results flagged for a closer look

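The 54 checks covered, in each group, the number of peaks and the log2 strongest fold enrichment of each gene (no peak set to 0). They also covered the peaks of all member windows together and their density relative to the genome. In 14 of them, all for single genes, 1 library was far from the other 3 of its group, where chance gives about 1 in 20. With small whole numbers a single peak is enough for this, since 3 libraries at the same count leave no spread.

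Cd44 had 2 peaks in WT TE replicate 1, with a log2 strongest fold enrichment of 2.27, and none in the other WT TE libraries. Itga4 had 1 peak in WT TE replicate 2 (log2 fold enrichment 1.87) and none in the rest of that group. S1pr1 had 2 peaks in TPdh-/- TE replicate 4 (log2 fold enrichment 2.28) and none in the other libraries of the group. Ly6c2 had 1 peak in WT TM replicate 1 (log2 fold enrichment 2.15) and 1 in TPdh-/- TM replicate 2 (log2 fold enrichment 2.25), each the only one of its group and both at the same site.

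Cd44 had 8 peaks in TPdh-/- TE replicate 4, against 2 or 3 in the rest of the group. Itgae had 4 peaks in TPdh-/- TE replicate 1 and Itga4 had 4 in TPdh-/- TM replicate 2, where the other libraries of each group had 3. WT TM replicate 2 had no Itga4 peak (log2 fold enrichment 0), while the other WT TM libraries had at least 1. Each is given as a value, and its cause was not tested.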

How the results depend on the processing

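No member passed an adjusted p of 0.05 under any alternative in any of the 12 combinations of contrast and measure. No coding gene did as deposited either, with a smallest possible unadjusted p of 0.0286, so these counts of 0 say nothing about stability. The recurring regions numbered 5 where peaks had to overlap by 1 base, 3 where they had to share 50% of the shorter peak, and 9 where summits were chained within 1000 bp, which was chosen after seeing the data. The member windows' density relative to the genome, also recomputed after seeing the data, moved by more than the spread between libraries in TPdh-/- TE to 2.37 (−log10 q of at least 5), 2.99 (lists of 2290 peaks) and 2.43 (regions of 2 or more libraries), in WT TM to 0.598 (lists of 2290 peaks), and in TPdh-/- TM to 2.37, 2.35 (fold enrichment of at least 5), 4.19 and 2.60. Per 10000 peaks of the list, the test of whether the genotype difference depended on cell state gave an unadjusted permutation p of 0.0120 for Itgae. No other member or alternative gave a p under 0.05 in this test. Other coding genes were not tested in this way, so no share can be set beside it. Itgae was held by 4 TPdh-/- TE libraries as deposited, by 1 with a −log10 q of at least 5 or with 2290 peaks each, and by 2 with a fold enrichment of at least 5. By libraries with a peak, leaving out WT TE replicate 1 or WT TE replicate 2 let Cd44 and Itga4, respectively, reach an unadjusted p of 0.0286 in TPdh-/- TE against WT TE, and so did Cd44 without WT TE replicate 1 and Itgae without WT TM replicate 3 in WT TM against WT TE, and S1pr1 without TPdh-/- TE replicate 4 in TPdh-/- TM against TPdh-/- TE. By number of peaks or strongest peak the same p was reached by these genes without the same libraries, except Itga4. It was also reached by Cd44 and Itgae without WT TM replicate 1 and Itga4 without TPdh-/- TM replicate 1 in the TM genotype contrast, and by Cd44 without TPdh-/- TE replicate 3 in the TE genotype contrast. Cx3cr1 reached it without WT TE replicate 4 in WT TM against WT TE. This p is the smallest that 4 against 3 libraries can give. It follows once the library that made the groups overlap is removed, so it adds no support. With the replicate block (same-numbered libraries paired), the differences were 2 peaks for Itga4 in TM and 3.25 for Itgae in TE, and 1.76, 1.87 and 2.27 in log2 strongest fold enrichment for Cx3cr1, Itga4 and Itgae in TE, each at p = 0.125, the smallest that an exact sign-flip test of 4 pairs can give. Of 674 values under an alternative, for libraries with a peak and for the differences in number or strength that passed an unadjusted 0.05 as deposited, 617 stayed on their side of the unadjusted threshold, 6 crossed to it and 51 left it. Most of the 674 belong to results that had not passed as deposited and so could not leave it. All 51 come from the few results that had passed, so the 617 are no measure of how stable those few were. Of the 59 other differences in number or strength, which did not pass it as deposited and are not among the 674, 16 changed sign under at least 1 alternative, 7 of them in TPdh-/- TM against TPdh-/- TE, and 14 passed it under at least 1 alternative. Depth is not in the lists, and the weakest listed summits had 5 to 9 fragments in WT TE, the group with the highest background coverage, and 3 to 5 in the others.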
